A study of Caenorhabditis elegans with 2 samples.

Results

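Strong candidate binding regions of the transcription factor PAG-3 that lay between genes and away from promoters in late embryos of Caenorhabditis elegans are described here. They were taken from the authors' list of 21336 candidate regions called on the pooled replicates, in the genome build ce11. The 2000 regions of largest signal value were kept first. A region then counted as distal intergenic when its summit lay outside every protein-coding gene and outside the window from 1000 bp upstream to 200 bp downstream of every protein-coding transcript start. Summits within 100 bp of a tRNA, snoRNA or snRNA gene were left out, as were those near the right end of V. This left 346 of the 2000 regions (17.3%). Of the other 1654, 1036 had their summit in a gene body, 506 in a promoter window, 58 at a small RNA gene of those kinds and 54 near the right end of V. A further 3515 weaker candidates met the same location rule and serve as the comparison.

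Chromatin immunoprecipitation and sequencing (ChIP-seq) had been done on whole hermaphrodites of strain OP154, whose genotype is unc-119(ed3) III; wgIs154. The integrated transgene makes PAG-3 with GFP and FLAG tags at its C terminus, and the antibody recognised GFP. Eggs were released by bleaching and the late embryos were collected 4 hours after this synchronisation. There were 2 biological replicates of this 1 group, and no other genotype, stage or treatment. The tagged protein was made from a transgene, so its binding stands for PAG-3 only as far as the transgene matches the native gene. Whole animals were used, so strong binding in few cells and weak binding in many cannot be told apart. The lists give a signal value per region but no read counts, so the sequencing depth was unknown.

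PAG-3 is a zinc-finger protein of the GFI family, which in mammals binds DNA with the core AATCAC and mostly represses transcription. In worms it acts in neuroblast lineages and in the identity of neurons such as the BDU and touch receptor neurons. Most regulatory sequence in the compact genome of this worm lies close to promoters, and distal intergenic elements, some of them enhancers or promoters of non-coding RNA genes, are the smaller class. The regions were chosen on the pooled signal value, and 1 group of 2 replicates allows no comparison of conditions, so no test was made. Shares of regions are given with 95% Wilson intervals and medians with exact binomial 95% intervals, which treat regions as independent and cover counting error only.

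The alternating purine word AGAGAG is shown first, in strong regions outside repeats that were picked because they hold it. Each line gives the plus strand of ce11 over the summit and 50 bp to each side of it, named by the gene with the nearest transcript start, and capitals mark AGAGAG or its reverse complement CTCTCT. The windows are chrV:1151452-1151552 for cmd-1, chrIV:14033829-14033929 for Y37A1B.7, chrX:14841106-14841206 for egrh-1 and chrIV:7402216-7402316 for C48A7.16.
cmd-1 region: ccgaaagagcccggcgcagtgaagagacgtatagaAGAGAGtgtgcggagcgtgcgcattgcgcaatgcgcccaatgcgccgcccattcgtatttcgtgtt
Y37A1B.7 region: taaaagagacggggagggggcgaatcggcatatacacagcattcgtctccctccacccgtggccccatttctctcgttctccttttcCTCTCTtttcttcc
egrh-1 region: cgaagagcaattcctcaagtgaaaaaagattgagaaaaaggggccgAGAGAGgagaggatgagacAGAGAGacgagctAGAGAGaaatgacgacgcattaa
C48A7.16 region: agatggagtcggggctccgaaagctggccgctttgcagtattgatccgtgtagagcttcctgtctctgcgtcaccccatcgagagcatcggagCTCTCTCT
They are the 4 strongest regions in unique sequence that hold the word, apart from those on a chromosome from which no sequence is printed. Regions in unique sequence near hrg-5, Y39E4B.6, ech-2 and mig-15 had larger pooled signal values than the C48A7.16 region and did not hold the word. The egrh-1 window holds the word 3 times, and the C48A7.16 window ends in an alternating run.

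The GFI core word AATCAC was in 9 of the 346 windows. The strongest windows that hold it in unique sequence, chosen the same way, are chrIII:4649364-4649464 near ppm-2, chrIII:2903720-2903820 near idpa-1 and chrX:11248238-11248338 near C34F6.10. They are given on the plus strand, with AATCAC or its reverse complement GTGATT in capitals.
ppm-2 region: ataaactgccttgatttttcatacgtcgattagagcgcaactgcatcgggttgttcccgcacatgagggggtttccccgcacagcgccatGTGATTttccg
idpa-1 region: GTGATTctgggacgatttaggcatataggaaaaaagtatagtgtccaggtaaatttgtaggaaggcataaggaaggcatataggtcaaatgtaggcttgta
C34F6.10 region: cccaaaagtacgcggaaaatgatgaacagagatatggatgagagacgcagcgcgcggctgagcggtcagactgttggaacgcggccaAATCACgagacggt
In all of them the word lay towards the edge of the window and not at the summit.

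Several regions lay on tandem repeats, and 4 of them, of pooled signal values from 52.9 to 229 on chromosomes III, X, IV and V, share a repeat unit. Their windows are chrIII:931557-931657 near fbxa-55 and chrIV:9048246-9048346 near Y73F4A.1, both on the minus strand, and chrX:5056367-5056467 near C24H10.4 and chrV:1104588-1104688 near Y50D4B.2, both on the plus strand. Capitals mark the longest word found in all 4 windows, of 19 bases.
fbxa-55 region: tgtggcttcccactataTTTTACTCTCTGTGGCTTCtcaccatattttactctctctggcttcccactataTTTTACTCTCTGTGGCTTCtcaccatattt
C24H10.4 region: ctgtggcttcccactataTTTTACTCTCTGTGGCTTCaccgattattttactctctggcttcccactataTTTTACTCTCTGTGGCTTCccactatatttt
Y73F4A.1 region: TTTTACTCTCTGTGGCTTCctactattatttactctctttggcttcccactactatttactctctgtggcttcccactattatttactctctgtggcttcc
Y50D4B.2 region: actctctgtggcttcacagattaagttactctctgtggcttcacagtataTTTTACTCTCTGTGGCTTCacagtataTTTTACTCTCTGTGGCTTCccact
The shared word itself holds CTCTCT, so each of these windows was counted as holding AGAGAG. Other repeats with strong signal are shown on the plus strand for chrV:12510075-12510175 near T28H10.2 and chrV:5284750-5284850 near Y49G5A.1, with the most frequent word of 9 bases in capitals.
T28H10.2 region: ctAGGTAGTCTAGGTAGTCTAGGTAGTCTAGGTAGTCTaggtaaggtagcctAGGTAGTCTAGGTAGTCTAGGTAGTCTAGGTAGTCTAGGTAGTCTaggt
Y49G5A.1 region: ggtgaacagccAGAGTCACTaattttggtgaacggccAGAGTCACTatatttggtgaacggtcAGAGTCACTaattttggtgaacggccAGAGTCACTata
Copies of its 9-base word make up 81 bases of the T28H10.2 window.

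A region exceeded by only 2 of the 346 lay just upstream of a microRNA gene. MicroRNAs silence messenger RNAs that pair with their seed, which is bases 2 to 8. The 5′ arms of mir-51, mir-52 and mir-53, read from ce11 with the positions annotated by RefSeq (chrIV:11026074-11026096 on the minus strand, chrIV:14034024-14034047 on the plus strand and chrIV:11027653-11027676 on the minus strand), are shown with the seed in capitals.
mir-51: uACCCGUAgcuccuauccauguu
mir-52: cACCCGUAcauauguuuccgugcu
mir-53: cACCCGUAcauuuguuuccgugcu
All 3 carry the seed ACCCGUA. The window at the summit next to mir-51, chrIV:11026107-11026207, is given on the strand of mir-51 (minus), with the word GGTTCGA in capitals, a word that also occurs in the internal promoter of tRNA genes.
hrg-5 region: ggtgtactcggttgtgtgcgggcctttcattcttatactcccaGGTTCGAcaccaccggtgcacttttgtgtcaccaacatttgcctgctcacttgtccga
No annotated tRNA, snoRNA or snRNA gene lay within 100 bp of this summit, since such regions were left out.

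The signal values chose the regions and are given as a description. The pooled signal value of the 346 regions ran from 52.7 to 346, with a median of 62.0 and quartiles of 56.5 and 70.5. The authors' -log10 q ran from 0.765 to 2.61 with a median of 1.13 and quartiles of 0.932 and 1.38. Most regions were thus close to the limit of choice, and few were far above it. The term strong refers to rank in pooled signal value, as no limit was set on q. The last regions inside the limit, nearest to clc-22, algn-10 and mml-1, had 52.74, 52.70 and 52.70, and the next distal intergenic regions outside it, nearest to ceh-14, oac-58 and ZK131.11, had 52.63, 52.58 and 52.56. All but 2 of the regions were 450 bp wide, and the narrower ones were those of nas-30 (308 bp) and fbxa-55 (153 bp). The authors' list of peaks past a threshold on the irreproducible discovery rate (IDR) is made of the strongest pooled regions, down to a single limit, and 37 of the 346 regions belonged to it. With overlaps counted, 44 of 346 (12.7%, 9.61 to 16.6) met an IDR peak, beside 2.1% of all pooled candidates. The same ranking set both lists, so nothing follows from that count.

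The strongest region, nearest to nas-30, a gene for an astacin-type metalloprotease, lay on chromosome I from 933368 to 933675. Its signal value was 184 in replicate 1 and 187 in replicate 2. The next, nearest to the F-box gene fbxa-55 on chromosome III from 931521 to 931673, had 118.6 and 120.9 in replicates 1 and 2. The replicates lay close together at both, and both carry the same repeat unit. Next in order, 3028 bp downstream of the start of the heme-responsive gene hrg-5 on chromosome IV from 11025932 to 11026381, had 87.0 and 78.3. Values near Y49G5A.1 were 84.2 and 62.5, and those near T28H10.2 were 61.9 and 88.4. These 2 repeat regions thus lay on opposite sides of equality.

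Among the 20 strongest regions, 12 were higher in replicate 2 and 8 in replicate 1, and 17 differed by no more than 1.5-fold between replicates. The strongest region in unique sequence after that of hrg-5 was nearest to the calmodulin gene cmd-1, 4769 bp upstream of its start, with 70.4 in replicate 1 and 58.3 in replicate 2. The region near egrh-1, which encodes a zinc-finger protein related to the EGR factors, lay 4781 bp upstream and had 58.2 and 48.9. The region near mig-15, which encodes a kinase needed for cell migration and axon guidance, lay 6976 bp upstream with 47.4 and 57.7. In these the replicates lay close together. The region near snf-1, of the sodium-dependent neurotransmitter transporter family, had 42.1 and 69.7, and that near W02H3.3 had 30 and 63.8, the widest gap among the 20. The other regions among the 20 lay near C24H10.4, Y50D4A.6, Y37A1B.7 (2 regions), Y39E4B.6, ech-2, C48A7.16, F54F12.1, klp-7 and tps-1. No region lay within 20000 bp of pag-3 or unc-119, the genes named in the genotype and the tagged construct.

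In the replicates, 341 of the 346 regions overlapped a candidate in both lists. Those near rho-1, magu-3 and egl-9 had none in replicate 1, and those near mltn-11 and Y70G10A.4 had none in replicate 2. The strongest overlapping replicate region had a signal value with a median of 31.4 (range 13.2 to 184) in replicate 1 and 32.6 (range 13.5 to 187) in replicate 2. The replicates differed by at most 1.5-fold at 230 of the 341 and by over 2-fold at 35. The Spearman correlation of the 2 replicate values over these regions was 0.01. The regions were chosen on the pooled value, so neither figure measures how well the replicates match over their whole lists. Neither replicate was uniformly the stronger, with 153 regions higher in replicate 1 and 188 in replicate 2. With the strongest overlapping region, the widest gaps were near sad-1 (13.3 and 47.1 in replicates 1 and 2), arrd-17 (44.6 and 13.8) and Y38C1BA.1 (13.2 and 40.1). Their ranks in the weaker replicate were 22847, 21460 and 22897, near the end of lists of 23022 regions in replicate 1 and 22971 in replicate 2, and 321, 295 and 581 in the other replicate.

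**Figure D1:**
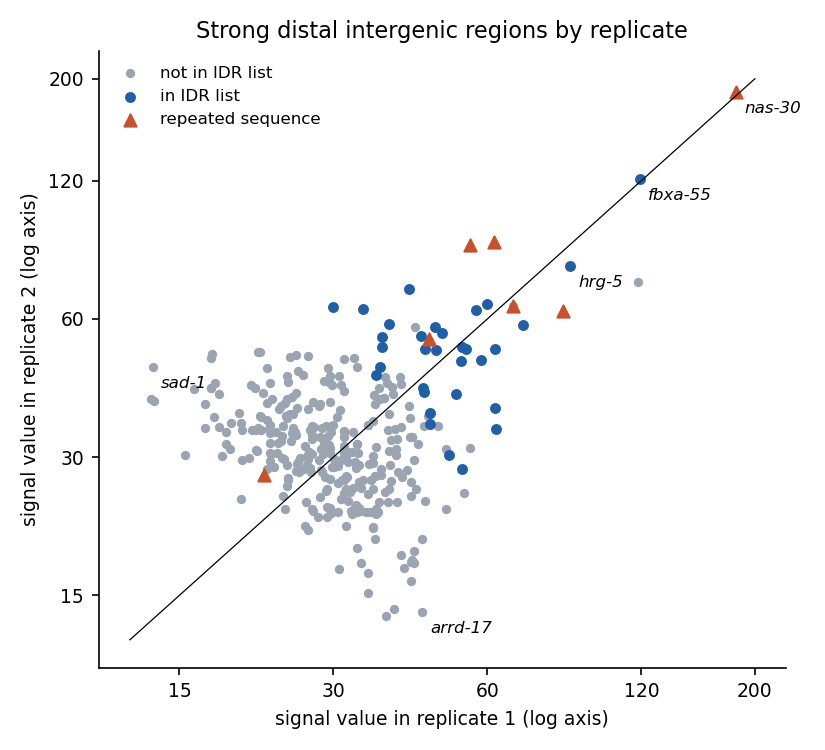
Signal value of the strongest overlapping region in replicate 1 (x axis) and replicate 2 (y axis) for the 341 regions with a candidate in both, on log axes with the line of equality. Blue points are IDR peaks in unique or mostly unique sequence, triangles are regions on repeated sequence whatever their list, and the nas-30 and fbxa-55 regions stand at the upper right near equality.

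Of the 346 regions, 121 (35%, 30.1 to 40.1) overlapped a region among the 2000 strongest in each replicate, beside 5.11% of all pooled candidates. The share was 42.9% (40.6 to 45.3) for the other strong regions and 1.05% for the weaker distal intergenic ones. Pooled strength set much of this. All 8 regions within pooled rank 100 were strong in both replicates, as were 28 of the next 29 down to the IDR limit. The count was 66 of 120 (55%) from there to rank 1000 and 19 of 189 (10.1%) beyond rank 1000. A further 26 regions (7.51%) were among the 2000 strongest of neither replicate. For most regions past the IDR limit, then, strength in the pooled list did not come with strength in both replicates.

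The 346 regions were spread over 314 nearest genes, of which 286 had 1 region. Stretches with several regions lay near srw-60 (4 regions), Y37A1B.7 (3) and rho-1 (3), and 12 regions overlapped a stronger pooled region. The summit lay a median of 2774 bp (2468 to 2993) from the nearest protein-coding transcript start, beside 2677 bp (2599 to 2761) for the weaker distal intergenic regions, so distance did not set the strong regions apart. The summit lay upstream of the nearest start in 259 of 346 (74.9%, 70.0 to 79.1), and in 70.0% (68.4 to 71.5) of the weaker regions. It lay over 1000 and up to 2000 bp upstream in 107 (30.9%), next to the excluded promoter window, against 25.7% of the weaker ones. Those closest to a start from upstream were near ftt-2 (1002 bp), algn-10 (1018 bp) and EGAP2.2 (1020 bp). Strong regions left out by the promoter window lay just inside it near ric-7 (999 bp), Y65A5A.1 (976 bp) and egl-27 (971 bp). The farthest from any start were near Y73B6A.3 (35075 bp), T06A4.1 (14995 bp) and F57G12.1 (12948 bp). The interval between the flanking genes was 7750 bp long at the median, and 7593 bp for the weaker regions.

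**Figure D2:**
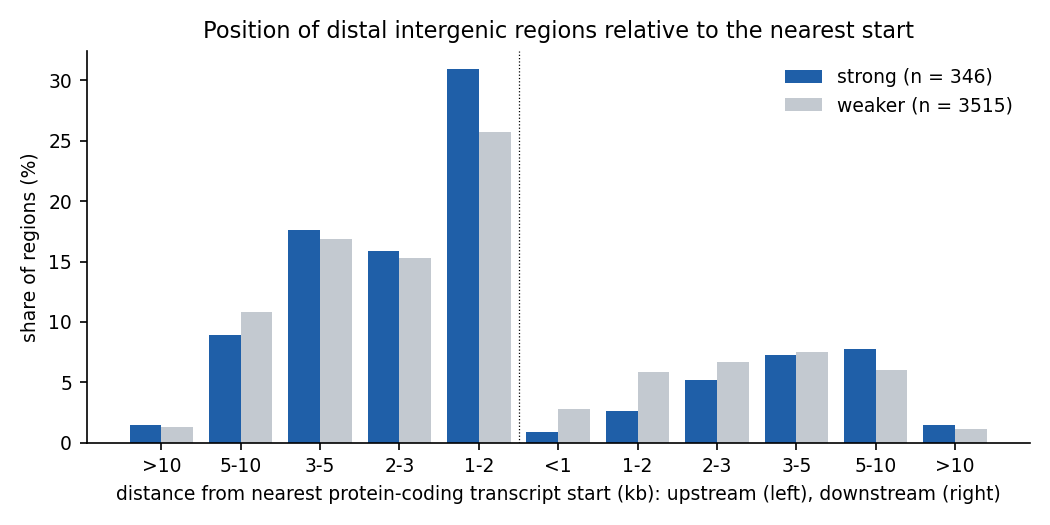
Share of strong (blue, n = 346) and weaker (grey, n = 3515) distal intergenic regions by distance in kb from the nearest protein-coding transcript start, upstream on the left and downstream on the right. The tallest blue bar, 30.9%, lies 1 to 2 kb upstream, and the distance classes are of unequal width.

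Between the 3′ ends of convergent genes lay 30 of 346 strong regions (8.67%, 6.14 to 12.1) and 12.1% (11.1 to 13.2) of the weaker ones, with intervals that overlap. Between divergent genes the shares were 40.5% (35.4 to 45.7) and 32.8% (31.3 to 34.4), whose intervals do not overlap. The other strong regions had 35% (32.7 to 37.3), which overlaps the interval of the strong distal ones, and all pooled candidates 29.3%. However, 1036 of the 1654 other strong regions had their summit in a gene body, as did many of all candidates. For such a summit the flanking genes were those beyond that gene, so these shares are not a like measure. The X chromosome held 89 of 346 (25.7%, 21.4 to 30.6), while it holds 23.8% of the sequence that meets the location rule and 21.8% of the weaker regions. Per Mb of such sequence the strong regions numbered 14.5 over the 23.9 Mb of the genome that qualified. Chromosome I had 18.5 per Mb, III 16.5, X 15.7, IV 13.2, II 13.1 and V 11.5. Their density thus differed between chromosomes by less than 2-fold, and that of X was not apart from the others.

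Genes of kinds that the location rule did not name lay within 100 bp of 97 summits (28%, 23.6 to 33). The shares were 15.4% (13.8 to 17.2) for the other strong regions, 20% (18.7 to 21.4) for the weaker distal ones and 9.62% for all pooled candidates, many of which lie in genes. The non-coding RNA class made up most of it, at 76 regions (22.0%, 17.9 to 26.6) against 9.08% (8.17 to 10.1) of the weaker distal regions. This class lay near 13.7% (12.1 to 15.4) of the other strong regions and 6.34% of all pooled candidates. Pseudogenes lay near 17 regions (4.91%, 3.09 to 7.73) against 8.59% (7.71 to 9.56) of the weaker ones, with intervals that just meet. They lay near 1.39% (0.928 to 2.08) of the other strong regions and 2.34% of all pooled candidates. A long intergenic RNA gene lay near 6 regions (1.73%, 0.797 to 3.73), among them linc-128 at the cmd-1 region. The share was 1.08% (0.789 to 1.48) for the weaker distal regions, with intervals that overlap. It was 0.302% for the other strong regions and 0.295% for all pooled candidates. What most of these non-coding RNA genes do is not given by the annotation.

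MicroRNA genes lay within 2000 bp of 8 regions (2.31%, 1.18 to 4.5), and of 1.68% (1.30 to 2.16) of the weaker ones. The share was 1.75% (1.22 to 2.51) for the other strong regions and 1.2% (1.07 to 1.36) for all pooled candidates. All of these intervals overlap that of the strong distal regions, so their share did not stand apart. The summit near hrg-5 lay 45 bp upstream of the annotated mir-51 hairpin and downstream of mir-53. At mir-52 the summit of the Y37A1B.7 region on chromosome IV from 14033654 to 14034103 lay 129 bp upstream of the hairpin, with 60 in replicate 1 and 64.5 in replicate 2, or 35.1 and 64.5 with the replicate region of nearest summit. Another summit lay 1244 bp upstream of mir-52, with 44.4 and 55.1, and another, of pooled signal value 57.3, lay inside the hairpin gene in a region that overlaps the stronger one and takes its replicate values from it. The 2 microRNA genes with the strongest regions thus share a seed, as the sequences above show. Weaker regions lay 251 bp upstream of mir-59 (31.8 and 27.3) and 205 bp upstream of mir-80 (34 and 25.7).

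The summit windows were rich in G and C. The median GC content of the window at the summit was 49.5% (48.5 to 50.5), and 40.6% (40.6 to 41.6) for the weaker distal regions. It was 50.5% (49.5 to 51.5) for the other strong regions, so the strong distal regions were like strong regions elsewhere in this respect. Averaged over the 346 regions, GC content fell from 49.1% at the summit to 34% at 500 bp on each side.

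The word AGAGAG, read on both strands, was in 100 of 346 windows (28.9%, 24.4 to 33.9). It was in 14.1% (12.5 to 15.8) of the other strong regions, 10.4% (9.45 to 11.5) of the weaker distal ones and 8.37% of all pooled candidates, with none of the intervals overlapping that of the strong distal regions. Among strong regions by location the share was 19.2% (16 to 22.8) in promoter windows and 12% (10.1 to 14.1) in gene bodies. The word was thus most frequent in the distal intergenic class of these 3. It was local to the summit: at 500 bp upstream and downstream along the plus strand the share was 5.2% and 5.78%. In regions selected the same way from a single replicate list, the share was 22.0% of 314 regions in replicate 1 and 30.6% of 324 in replicate 2, against 10.2% and 9.83% of the weaker distal regions of those lists. The share in replicate 1 alone lay below the interval of the pooled regions.

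Without the 8 regions on repeated sequence the share was 28.7%, without the 2 repeat families of 5 regions described below as well it was 28.6%, and without every region linked to another by shared words it was 29.9% of 304. The 100 regions with the word had a median of 31.5 in replicate 1 and 34.6 in replicate 2, and the 246 without it had 31.1 and 31.9, so the medians of the regions with and without the word lay close together. By pooled rank, the word was in 37.8% (24.1 to 53.9) of the 37 IDR regions. Past the IDR limit it was in 27.8% (23.1 to 33.1), with intervals that overlap. Regions with the word were upstream of the nearest start in 83 of 100 and those without it in 176 of 246 (71.5%). No intervals were computed for these shares, so whether they lie apart was not tested. AGAGAG had the largest ratio of strong to weaker distal share, 2.78, among the 20 words of 3 A and 3 G or their complements. The shifted word GAGAGA followed with 2.49 but was in slightly more of the strong windows, 102 (29.5%). The median ratio of the 19 words other than AGAGAG was 1.63. AGAGAG was itself chosen with earlier results of these data known, so its place among these words supports nothing by itself. Most other words of that composition were thus also more frequent in the strong regions. Unbroken runs of at least 20 purines or pyrimidines were in 26 windows (7.51%, 5.18 to 10.8), and in 2.96% (2.45 to 3.57) of the weaker ones.

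**Figure D3:**
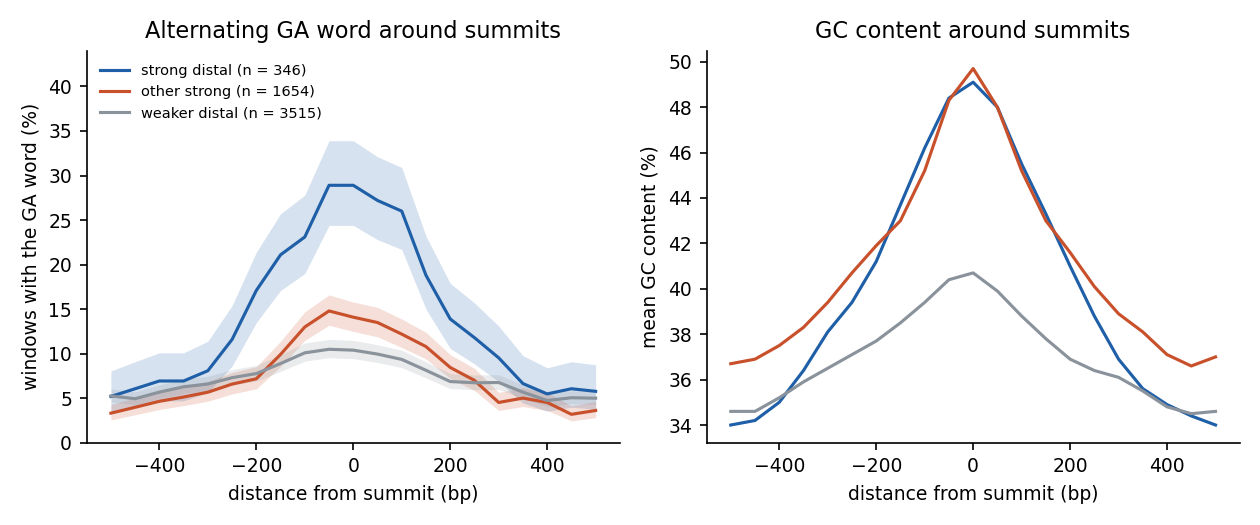
Left, share of windows of the same length with the alternating GA word on either strand (%, shaded 95% Wilson interval) against distance from the summit in bp, for strong distal regions (blue), other strong regions (red) and weaker distal regions (grey); right, mean GC content (%) of the same windows. The blue share peaks at 28.9% at the summit and is 5.2% and 5.78% at the ends, while the blue and red GC curves nearly coincide at the summit.

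The GFI core word AATCAC was in 9 windows (2.60%, 1.37 to 4.87). It was in 3.39% (2.62 to 4.37) of the other strong regions, 4.21% (3.6 to 4.93) of the weaker distal ones and 4.3% of all pooled candidates, so it was not more frequent in the strong distal regions. Its ratio of strong to weaker distal share was 0.618, beside a median of 0.682 for the other 59 words of its composition. None of the 20 strongest regions had it, but for a word in 2.60% of the windows that count says little. The longer word AATCACNGC was in 0 of 346 windows, with an upper Wilson limit of 1.1% (3 counts of 346 would be 0.867%), and in 0.142% of the weaker ones. The strongest regions with AATCAC were those near ppm-2, mau-2 and idpa-1.

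Of the other words searched, GCGCGC was in 20 windows (5.78%, 3.77 to 8.76), like the other strong regions (5.2%) and more than the weaker distal ones (1.91%, 1.5 to 2.41). TTAGGC, the unit of the worm's telomere repeat, was in 12 windows (3.47%), beside 5.2% and 4.10%. GGTTCGA was in 5 windows (1.45%, 0.619 to 3.34), beside 4.11% (3.26 to 5.18) of the other strong regions, which include those at tRNA genes, and 0.996% of the weaker ones. Of all pooled candidates, 2.16% held GCGCGC, 4.02% TTAGGC and 1.41% GGTTCGA. Apart from AGAGAG, then, none of the 6 words was more frequent in the strong distal regions than in both comparison sets with intervals apart.

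Repeated sequence was concentrated at the top of the list. A region was counted as repeated when under 50% of its words of 36 bases occur once in the genome. This held for 8 of 346 regions (2.31%, 1.18 to 4.5), 1.09% of the other strong regions, 1.37% of the weaker distal ones and 0.844% of all pooled candidates. Of the 8 regions within pooled rank 100, 5 were repeated, but 0 of the next 29 down to the IDR limit were, 1 of 120 from there to rank 1000 and 2 of 189 beyond. Reads cannot be placed with certainty in such sequence, and how the authors placed them is not given, so the part of that in these signal values was not tested.

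The repeated regions were those near nas-30, Y49G5A.1, T28H10.2, C24H10.4, Y50D4A.6, Y73F4A.1, ZK380.4 and Y70G10A.4. That near Y70G10A.4 repeats with a period of 59 bp at 97.2% identity and had a signal value of 30.2 in replicate 1 and no candidate in replicate 2. The unit shared by the fbxa-55, C24H10.4, Y73F4A.1 and Y50D4B.2 windows also linked them to the nas-30 region, which makes 5 regions of 1 repeat family. Their pooled signal values ran from 52.9 near Y50D4B.2 to 346 near nas-30. The shared repeat was therefore found at both ends of the range of the 346 regions. In this family, fbxa-55 repeats with a period of 54 bp at 91.9% identity, and Y73F4A.1 with 27 bp at 84.6%. A second family of 5 regions lay near Y50D4A.6 and klp-7 (2 overlapping regions each) and eftu-2. klp-7 encodes a microtubule-depolymerising kinesin and eftu-2 a GTPase of the spliceosome.

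Among 10 gene lists defined by name, synaptic genes were the nearest gene more often for strong than for weaker regions, at 9 of 346 (2.60%, 1.37 to 4.87) against 24 of 3515 (0.683%, 0.459 to 1.01). Without regions that overlap a stronger one the counts were 8 and 18. No such count was made for the other strong regions or for all pooled candidates. Whether the difference is particular to distal regions or goes with strong regions anywhere was therefore not tested. The lists were also chosen with earlier results of these data known, so the difference supports nothing by itself. The 9 regions lay near 8 of the 40 synaptic genes listed, upstream of the start in every case. Of all 346 regions 74.9% were upstream, so that position is common under the location rule. The strongest was 1091 bp upstream of unc-57, which encodes the endophilin of vesicle recycling, with 50.5 in replicate 1 and 30.3 in replicate 2. A region 2191 bp upstream of unc-31, which encodes the CAPS protein of dense-core vesicle release, had 42.4 and 36.5. A region 1184 bp upstream of unc-44, for neuronal ankyrin, had 55.5 and 31.4. These 3 were higher in replicate 1. The others lay near egl-3, a neuropeptide-processing convertase (54.0 and 25.1, or 31.5 and 25.1 with the replicate region of nearest summit), dgk-1, a diacylglycerol kinase that restrains transmitter release (37.7 and 40.4, 2 overlapping regions), cla-1 of the active zone (27.4 and 39.6), sad-1, a kinase of neuronal polarity (13.3 and 47.1), and unc-13 of vesicle priming (29.9 and 35.2). The synaptic regions thus had no common direction between replicates, and those of egl-3 and dgk-1 held AGAGAG.

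With a gene on either side of the summit counted, 14 regions (4.05%) had a synaptic gene, beside 1.45% of the weaker ones. The other lists were not more frequent beside strong regions with intervals apart. Chemoreceptor genes were nearest to 6 regions (1.73%, 0.797 to 3.73; weaker 2.53%), of which 4 lay near srw-60, the strongest with 42.8 and 33.2. F-box and MATH-BTB genes were nearest to 4 (1.16%; weaker 1.11%), and nuclear hormone receptor genes to 6 (1.73%; weaker 1.68%), led by nhr-1 (53.4 and 28.2), nhr-88 (44.6 and 19.9) and nhr-3 (31.5 and 31.3). Homeobox genes were nearest to 1 region, that of ceh-58, against 42 (1.19%, 0.885 to 1.61) of the weaker ones. Histone genes were nearest to 1 region, that of the linker histone gene hil-7. C-type lectin, collagen, neuropeptide precursor and touch receptor neuron genes were nearest to 0 of 346, with an upper Wilson limit of 1.1% each (3 counts of 346 would be 0.867%), beside 0.768%, 0.711%, 0.967% and 0.313% of the weaker regions, all of which lie under that limit.

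**Figure D4:**
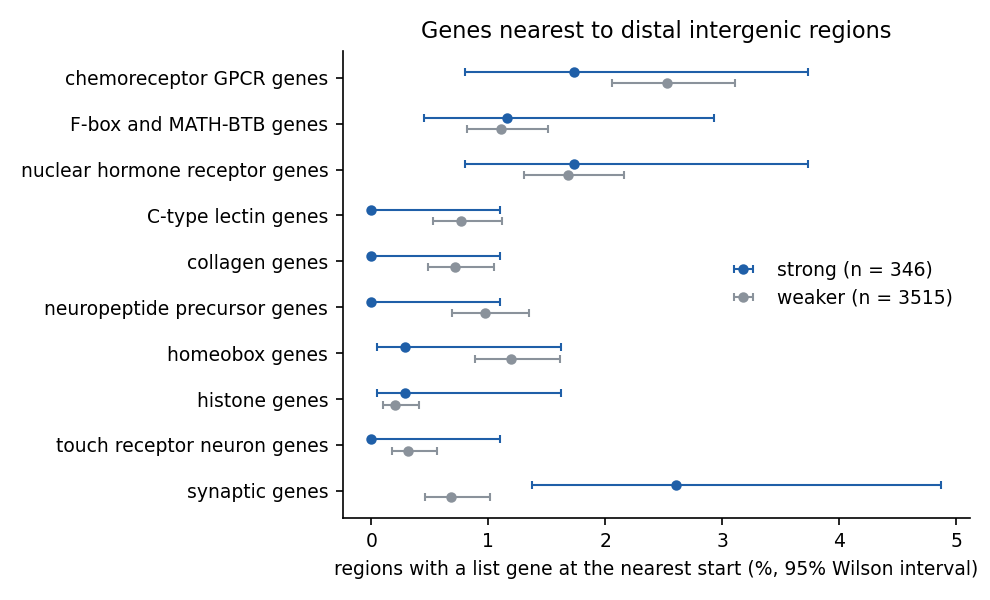
Share of distal intergenic regions whose nearest protein-coding transcript start belongs to each of 10 gene lists (%, points with 95% Wilson intervals), for strong regions (blue) and weaker regions (grey). The synaptic genes are the list whose intervals do not overlap, at 2.60% and 0.683%.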

How the data were processed

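PAG-3 ChIP-seq regions were analysed for 1 group of 2 biological replicates. Per the labels, the authors deposited candidate regions as input to IDR, for each replicate and pooled, and an IDR-thresholded list. The deposited signal values are the authors' enrichment scores per region, used to rank, describe and match regions within a list, and replicate values were set side by side without rescaling. The deposited -log10 q values were used as description. Not given in the sources used here are the peak caller, the aligner, the IDR threshold and the depth, and the control is not analysed here. Lists in ce10 were not used.

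Genes came from the Ensembl 115 annotation of WBcel235 (ce11), with 19973 protein-coding genes, and the sequence from the RefSeq assembly of that build. Regions matched when they overlapped by at least 1 bp. Each region took the value of the strongest overlapping replicate region. Words were searched on both strands of the summit and 50 bp to each side, and lists of genes were assigned by the nearest protein-coding start. The collagen, homeobox and receptor lists were drawn up by gene symbol. Repeat families link windows that share at least 5 words of 16 bases, leaving out words of only purines or only pyrimidines.

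The regions, words and gene lists were chosen with earlier results of these data known. The choice of the strongest overlap in place of the nearest summit, the limits of 1.5-fold and 2-fold, the rank classes, the run limit of 20, the comparison of words of equal composition, the microRNA distance and the repeat families were set after values had been seen, so they support nothing by themselves. Named regions were the 20 of largest pooled signal value, up to 3 of each gene list, those at the limits of rank and distance, and the IDR regions, of which those beyond the 20 are given by count, except that all synaptic regions and those named for a replicate gap, a repeat or a microRNA gene were chosen after their values were seen. The location rule, word search and uniqueness were checked on simulated data and by direct search. Versions were pandas 2.3.3, numpy 2.4.6, scipy 1.17.1 and matplotlib 3.10.9 under Python 3.11.15.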

Additional observations from a re-analysis of the deposited data

How the results depend on the processing

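Counts and shares were recomputed with other limits of rank, location, overlap and window, and each replicate list was used alone. With the 1000 strongest pooled regions in place of 2000, or with the IDR peaks alone, the member count was 157 and 37. The share overlapping an IDR peak was then 26.8% and 100%, and the share strong in both replicates 65.0% and 97.3%, since these follow the pooled rank. Among IDR peaks alone, convergent intervals made up 24.3%, repeated sequence 13.5%, the X chromosome 35.1% and AATCAC 0%, from 37 regions. The share strong in both replicates was 28.3% with summits within 100 bp and 18.2% with the 1000 strongest of each replicate. The share with another annotated gene was 8.46% when summits in gene bodies of every biotype but piRNA were left out, 21.4% at 0 bp and 38.2% at 500 bp. AATCAC was in 1.16% of windows of 25 bp to each side and 5.2% of those of 100 bp to each side, and GC content was 51% in the shorter. The distance to the nearest start was 1996 bp and 3626 bp with promoter windows of 500 and 2000 bp upstream, by construction. With 1 replicate alone the member count was 314 to 324, and the other shares recomputed stayed within their intervals, except that AGAGAG was in 22% of the regions of replicate 1 alone, below the interval of 24.4 to 33.9 for the pooled regions, and in 30.6% of those of replicate 2 alone.

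After the data were seen, the replicate region of nearest summit was used in place of the strongest. It changed the values of 49 regions, of which 1 is among the 20 strongest. The medians were 30.5 and 32 in replicates 1 and 2, 220 regions were within 1.5-fold and 42 beyond 2-fold, and 30.9% were strong in both. The Y37A1B.7 region at mir-52 then had 35.1 in replicate 1 in place of 60, egl-3 had 31.5 in place of 54.0, and unc-44 had 42.6 in place of 55.5. The widest gaps changed too. The Y50D4A.6 region of pooled signal value 63.7 then had 67.2 and 15.8 in replicates 1 and 2, a wider gap than near sad-1. Leaving out the 12 regions that overlap a stronger one, or the 8 on repeated sequence, changed none of the shares recomputed under them beyond their intervals. No paired analysis was possible because there is 1 group. Depth was unknown, and replicate spread rests on 2 samples.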
